A study of Homo sapiens with 12 samples.

Results

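The expression of 10 transcription factor genes, SOX2, SOX4, SOX9, SOX12, KLF4, KLF5, CDX1, CDX2, HNF4A and TP63, was examined in RNA-seq libraries of HCT116 cells, an established human colon carcinoma line. They are 10 of the 25733 genes in the deposited table, and they were chosen by name because SOX2 was lower in NH4Cl-treated cells than in control cells. The difference between NH4Cl-treated and control cells is therefore given for all 10 genes as a description without a test. Other comparisons that use these libraries are a description for SOX2. The study used NH4Cl as a source of ammonia, a metabolite of gut microbes, and asked how it changes the response of colon cancer cells to the cytokine TGF-β. Each of the 4 groups had 3 libraries, numbered as replicates 1, 2 and 3 in the labels. The control cells received no treatment. One group received 200 pM TGF-β for 1 h after 23 h of vehicle, and another received 10 mM NH4Cl for 24 h. The combined group received 10 mM NH4Cl for 23 h and then 200 pM TGF-β for 1 h. The labels name the treatments only, and the doses and times are those of the study's general treatment protocol.

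All groups came from 1 cell line, and HCT116 is widely described as carrying inactivating mutations in TGFBR2, the type II TGF-β receptor gene, which expression values do not show. Neither the labels nor the methods say whether the replicates were separate cultures. The p-values below therefore measure the spread between these samples, which may be technical. RNA was taken from bulk cultures, so fewer cells that express a gene and less of its RNA per cell cannot be told apart.

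SOX proteins bind DNA through an HMG box. SOX2 maintains pluripotent cells and progenitors of stratified and foregut epithelium, SOX9 is active at the base of the intestinal crypt, and SOX4 and SOX12 are close relatives within the family. KLF proteins are zinc finger factors, of which KLF5 is typical of the dividing crypt cells and KLF4 of the differentiating cells above them. CDX1, CDX2 and HNF4A set the identity of intestinal epithelium, and TP63 that of the basal layer of stratified epithelium.

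Values are FPKM, reads scaled to gene length and library size, as deposited by the authors. With the exon lengths of GENCODE release 29, 100% of the values came out as whole reads within a tolerance of 0.01, and each library held 14807630 to 18191998 reads on genes. Replicate 3 stood apart in every group. It was separated from replicates 1 and 2 by the leading principal component, which held 52.5% of the variance, and mitochondrial genes took 4.50% to 5.12% of its reads compared with 2.46% to 3.18% in the other libraries. SOX4, SOX9, SOX12, KLF4, KLF5 and HNF4A were each higher in replicate 3 than in the mean of replicates 1 and 2 in 4 of 4 groups, by 0.07 to 0.27 on the log2 scale for SOX12 and by 0.40 to 0.63 for KLF5. SOX2, CDX1 and CDX2 were higher in replicate 3 in 2 of 4 groups. What the replicate number stands for is not stated. Libraries of the same number deviated from their group means together. The shift of replicate 3 by itself makes replicates 1 and 2 deviate so, and does not show that they were matched across groups. Fits with the replicate number as a block are given wherever they changed a call.

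Tests were made with limma on log2(FPKM + 1) for 12341 genes whose mean FPKM reached 1, with Benjamini-Hochberg adjustment over all of them and a threshold of 0.05. Of the 10 factors, 9 passed this filter and TP63 did not. Fold changes are on the log2(FPKM + 1) scale, on which changes of genes with low FPKM come out too small. The effect of NH4Cl was tested between cells given NH4Cl plus TGF-β and cells given TGF-β. These 6 libraries were not used to choose the genes, but the spread in the test was estimated over all 12, which include the control and NH4Cl libraries that did. The level of SOX2 in these cells was already known when the set was chosen, so the test is not independent support for its direction.

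SOX2 (ENSG00000181449) is a gene with 1 exon on the plus strand of chromosome 3, from 181711924 to 181714436 in GRCh38. Its FPKM was 12.9, 12.4 and 13.3 in replicates 1, 2 and 3 of the control cells and 8.92, 8.48 and 8.67 in the NH4Cl-treated cells. In the TGF-β-treated cells it was 12.6, 12.7 and 11.5, and with NH4Cl plus TGF-β it was 8.50, 7.86 and 10.4. All 6 libraries with NH4Cl lay below all 6 without it, and replicate 3 of the combined group was the closest of them to the untreated level. These values rest on 302 to 589 reads per library. The exact 95% Poisson interval, which covers counting error only, was 9.44 to 11.4 FPKM in replicate 3 of the combined group and 10.4 to 12.7 in replicate 3 of the TGF-β-treated cells, so these libraries alone were not separated. In replicate 2 the intervals were 7.00 to 8.80 and 11.6 to 13.9.

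**Figure D1:**
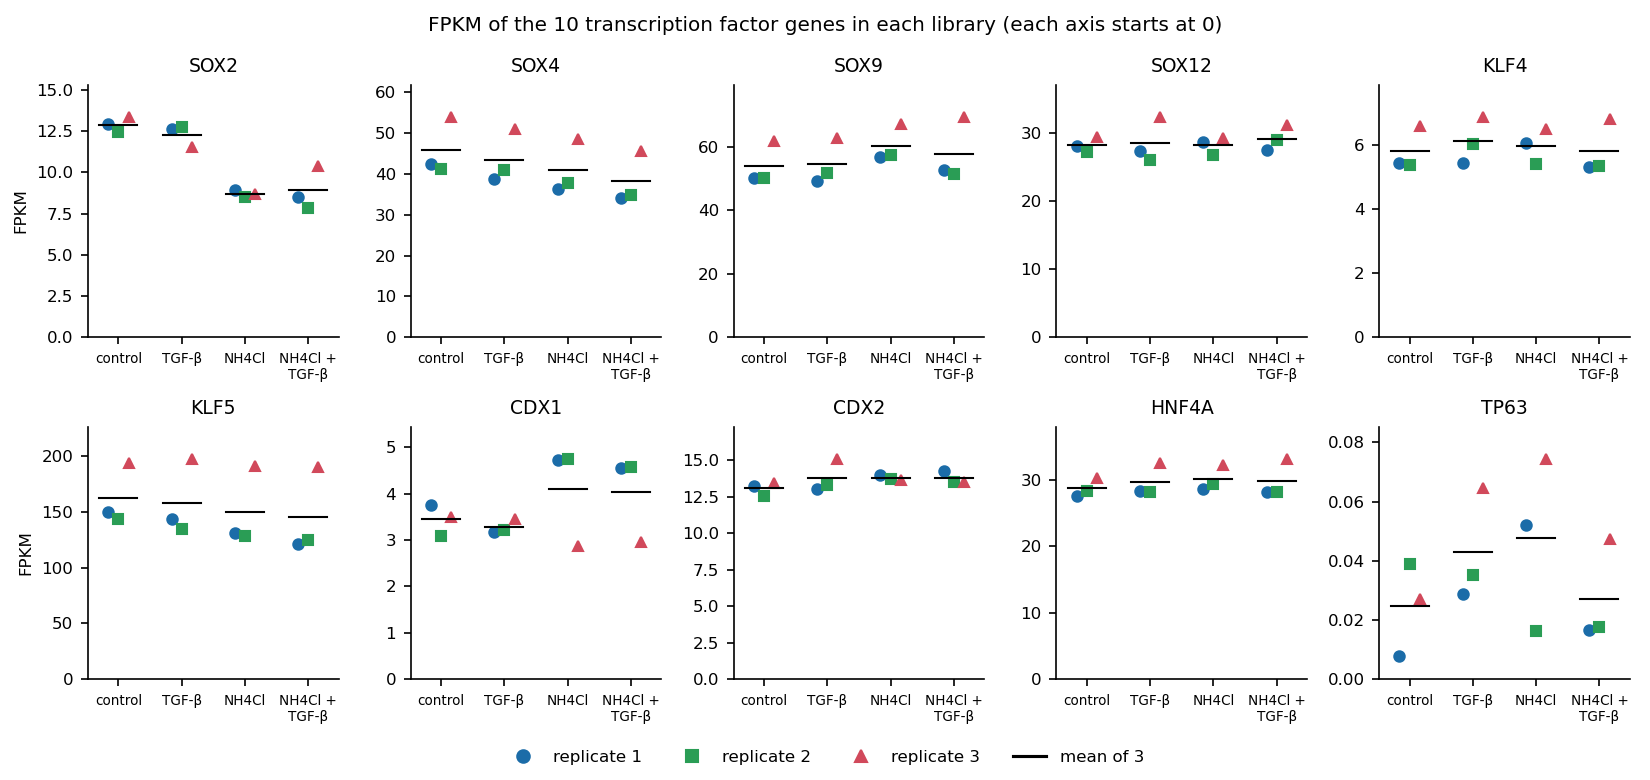
FPKM of each of the 10 genes (vertical axes, each from 0) in the 12 libraries, by group on the horizontal axis. Circles, squares and triangles are replicates 1, 2 and 3 and lines are means of 3; SOX2 ran from 7.86 to 10.4 in the libraries with NH4Cl and from 11.5 to 13.3 in those without it, and replicate 3 was the highest library of each group for SOX4, SOX9 and KLF5.

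The mean FPKM of SOX2 was 12.3 ± 0.659 (SD, n = 3) with TGF-β and 8.92 ± 1.31 with NH4Cl plus TGF-β, a ratio of 0.726. The fall of SOX2 passed the threshold, with a log2 fold change of -0.43 (standard error 0.0850, 95% confidence interval -0.62 to -0.24, limma adjusted p = 0.0474), and the gene was lower in 3 of 3 replicates. The differences by replicate were -0.52, -0.63 and -0.14. Fitting the replicate number as a block gave a standard error of 0.0764 and a limma adjusted p of 0.00490. With the block in replicates 1 and 2 only, a fit added once the data had been seen, the fold change was -0.57 (limma adjusted p = 0.00209). Replicate 3, the one left out, had the smallest difference. When a replicate number was left out without the block, the limma adjusted p was 0.994, 0.926 and 0.00125 without replicate 1, 2 or 3. Without the block the call was close to the threshold, and it was lost in 11 of the 12 fits that left out 1 library. The limma adjusted p was 0.0845, 0.0830 and 0.0623 without control replicate 1, 2 or 3, and 0.205, 0.204 and 0.0527 without TGF-β replicate 1, 2 or 3. It was 0.0855, 0.0882 and 0.0686 without NH4Cl replicate 1, 2 or 3, and 0.162 and 0.150 without replicate 1 or 2 of the combined group, whereas without replicate 3 of that group the limma adjusted p was 0.0151. The limma adjusted p was 0.0831 with no filter and 0.0837 with all libraries brought to an equal sum. With only the 6 libraries compared in the fit, the limma adjusted p was 0.320. In that fit, and in those without replicate number 1 or 2, 0 of all genes passed. The call without the block thus depended on libraries of every group, including those that chose the set. The fit with the block also used all 12 libraries and was not made with only the 6 compared. Its call is therefore not independent of the libraries that chose the set either. The log2 fold change was -0.57 to -0.33 when a library or a replicate number was left out. Its sign could not change in these fits, because the libraries of the groups compared did not overlap. Leaving out a control or NH4Cl library kept it at -0.43 by design.

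Of the 9 factors tested, 0 were higher and 1 was lower past the threshold without the block. The 1 was SOX2, the gene on which the set was selected, so this count is not independent of the selection. Over all genes, 127 of 12341 (1.03%) passed, with 0.778% higher and 0.251% lower. With the block, SOX2 and SOX4 passed, 0 higher and 2 lower, while 2322 of all genes (18.8%) passed, with 10.3% higher and 8.48% lower. SOX2 was the only one of the 10 genes whose 3 libraries with NH4Cl plus TGF-β did not overlap the 3 with TGF-β, compared with 16.3% of the genes tested. The median log2 fold change of the 9 factors was -0.00077, and that of all genes was -5.71e-05.

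In the comparison that chose the set, SOX2 had a mean of 8.69 ± 0.222 (SD, n = 3) with NH4Cl against 12.9 ± 0.451 in control cells, a ratio of 0.675, and the differences by replicate were -0.49, -0.50 and -0.57. SOX2 and CDX2 were the 2 genes of the 10 whose NH4Cl and control libraries did not overlap. Of all genes tested, 17.5% did not overlap in this comparison, and 0.381% passed the limma threshold without the block and 13.6% with it. These shares are given for scale only.

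The promoters are shown because SOX2 and KLF5 were both lower with NH4Cl in 3 of 3 replicates on both backgrounds. Beside them, SOX12 and HNF4A are examples of genes that were not lower in all replicates on both backgrounds. The background without TGF-β is the comparison that chose the set, and KLF5 did not pass without or with the block. The share of all genes with this pattern was not counted, so a shared response is not read from it. RefSeq promoters on GRCh38.p14 were found for 8 of the 10 genes, and not for SOX9 and CDX1. The window of SOX4, which was lower in the same way, lies wholly within annotated exon sequence of SOX4 and is not printed. It held 4 CCAAT boxes, 0 GC boxes and 0 matches to ACAAT. Those of SOX2, SOX12, KLF5 and HNF4A are printed, 5′ to 3′ on the strand of the gene, as the 250 bases before the RefSeq start. Capitals mark CCAAT, the CCAAT box, and ACAAT, a core that SOX proteins are known to bind, or their reverse complements ATTGG and ATTGT.
SOX2, chr3:181711675-181711924, plus strand: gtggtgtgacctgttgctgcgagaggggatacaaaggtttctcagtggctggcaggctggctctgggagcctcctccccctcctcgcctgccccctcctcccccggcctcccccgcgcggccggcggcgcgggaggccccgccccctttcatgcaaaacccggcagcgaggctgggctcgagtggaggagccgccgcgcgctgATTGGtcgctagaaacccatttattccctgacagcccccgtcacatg
SOX12, chr20:325302-325551, plus strand: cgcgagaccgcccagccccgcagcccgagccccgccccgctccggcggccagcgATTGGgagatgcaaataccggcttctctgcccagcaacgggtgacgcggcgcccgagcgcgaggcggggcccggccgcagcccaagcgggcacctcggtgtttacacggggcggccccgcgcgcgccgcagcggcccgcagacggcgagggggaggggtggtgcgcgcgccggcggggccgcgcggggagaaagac
KLF5, chr13:73054726-73054975, plus strand: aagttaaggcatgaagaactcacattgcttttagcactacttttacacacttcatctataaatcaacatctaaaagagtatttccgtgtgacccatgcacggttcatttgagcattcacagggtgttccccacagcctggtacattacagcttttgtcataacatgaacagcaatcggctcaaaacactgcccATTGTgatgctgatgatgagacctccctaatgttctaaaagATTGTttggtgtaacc
HNF4A, chr20:44355449-44355698, plus strand: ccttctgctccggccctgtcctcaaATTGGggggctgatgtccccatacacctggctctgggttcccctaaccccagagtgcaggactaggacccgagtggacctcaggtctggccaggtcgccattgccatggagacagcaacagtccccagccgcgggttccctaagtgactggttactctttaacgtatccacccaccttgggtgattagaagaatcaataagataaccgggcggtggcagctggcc
The SOX2 window lies within the span of SOX2-OT but in 0 of its exon bases, and its last base is the annotated start of SOX2 in GENCODE. It held 1 CCAAT box, a motif found in 32.0% of 35116 promoter windows of this length, and 0 matches to ACAAT, found in 24.6%. The KLF5 window held 0 CCAAT boxes and 2 matches to ACAAT. The windows of SOX12 and HNF4A held 1 CCAAT box each and 0 matches to ACAAT. Those of KLF4, CDX2 and TP63, which are not printed, held 0, 2 and 2 CCAAT boxes and 0, 1 and 0 matches to ACAAT. They held 4, 0 and 0 GC boxes. The CDX2 window lies wholly within annotated exon sequence of CDX2. The GC box GGGCGG, searched on both strands like the other motifs and found in 42.6% of windows, occurred 1 time in the SOX2 and HNF4A windows, 3 times in that of SOX12 and 0 times in that of KLF5. The GC content was 68.8% for SOX2, 79.2% for SOX12, 40.8% for KLF5 and 58.4% for HNF4A, with a median of 58% over all windows. These matches describe the letters only.

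SOX4 (ENSG00000124766), a progenitor factor that is often high in carcinomas, had an FPKM of 42.3, 41.2 and 53.8 in control cells and 36.4, 37.7 and 48.6 with NH4Cl. With TGF-β it was 38.7, 40.9 and 50.9, and with NH4Cl plus TGF-β it was 34.1, 34.9 and 45.5. Replicate 3 was the highest library of every group, so the groups overlapped, but within each replicate number the library with NH4Cl was the lower one. The differences were -0.21, -0.13 and -0.15 against control and -0.18, -0.22 and -0.16 against TGF-β. The log2 fold change between NH4Cl plus TGF-β and TGF-β was -0.19, which did not pass without the block (standard error 0.158, limma adjusted p = 0.705). SOX4 fell with the replicate number as a block (standard error 0.0314, limma adjusted p = 0.00386). With the block in replicates 1 and 2 only, a fit added once the data had been seen, the fold change was -0.20 (limma adjusted p = 0.0252). Replicate 3, the one left out, had the smallest difference against TGF-β, so nothing is drawn from that fit. Without the block, the fold change was -0.07 without TGF-β replicate 3, and -0.11 and -0.32 without replicate 1 or 3 of the combined group. SOX4 shares 168 exon bases with AL512380.2 on the opposite strand, which had a mean FPKM of 0.0142. Whether reads were counted by strand is not stated.

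SOX9 (ENSG00000125398), a factor of crypt base cells, had an FPKM of 50.3, 50.1 and 61.8 in control cells and 56.8, 57.4 and 67.2 with NH4Cl, higher in 3 of 3 replicates. With TGF-β it was 49.3, 51.8 and 62.8, and with NH4Cl plus TGF-β it was 52.7, 51.6 and 69.3, higher in 2 of 3. The groups overlapped in both comparisons. The log2 fold change between NH4Cl plus TGF-β and TGF-β was 0.08 and did not pass without or with the block (limma adjusted p = 0.885 and 0.202). SOX12 (ENSG00000177732) ranged from 26.0 to 32.3 FPKM over the 12 libraries, with group means of 28.3 to 29.2. Its fold change was 0.03, with a 95% confidence interval of -0.15 to 0.21 without the block and -0.07 to 0.14 with it.

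KLF5 (ENSG00000102554), a zinc finger factor of dividing crypt cells, was the most abundant of the 10 genes and ranked 201 of 25733 in control cells. Its FPKM was 149, 144 and 194 in control cells and 131, 128 and 191 with NH4Cl. With TGF-β it was 144, 134 and 197, and with NH4Cl plus TGF-β it was 121, 124 and 190. Replicate 3 was far above the other libraries in every group, and the libraries with NH4Cl were the lower ones in 3 of 3 replicates on both backgrounds. Against TGF-β the differences were -0.24, -0.11 and -0.05, with a log2 fold change of -0.13 that did not pass without the block (standard error 0.223, limma adjusted p = 0.877) or with it (standard error 0.0463, limma adjusted p = 0.0737). With the block in replicates 1 and 2 only, a fit added once the data had been seen, it was -0.18 (limma adjusted p = 0.0388). This is not taken as a call, because replicate 3, the one left out, had the smallest difference. Without the block, the fold change was 0.034 without TGF-β replicate 3. It was -0.02, -0.04 and -0.34 without replicate 1, 2 or 3 of the combined group.

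KLF4 (ENSG00000136826), a factor of differentiating epithelium and of induced pluripotency, ranged from 5.29 to 6.84 FPKM. Its group means were 6.10 ± 0.705 (SD, n = 3) with TGF-β and 5.81 ± 0.865 with NH4Cl plus TGF-β, against 5.80 ± 0.684 in control cells and 5.97 ± 0.553 with NH4Cl. The fold change between NH4Cl plus TGF-β and TGF-β was -0.06, with a 95% confidence interval of -0.31 to 0.19 without the block and -0.19 to 0.06 with it.

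CDX1 (ENSG00000113722), a homeobox factor of intestinal identity, had an FPKM of 3.76, 3.08 and 3.49 in control cells and 4.72, 4.74 and 2.87 with NH4Cl. With TGF-β it was 3.18, 3.22 and 3.44, and with NH4Cl plus TGF-β it was 4.55, 4.58 and 2.95. In replicates 1 and 2 the libraries with NH4Cl were above all 6 libraries without it, whereas in replicate 3 they were below all of them. Against TGF-β the differences were 0.41, 0.40 and -0.17, and against control they were 0.26, 0.49 and -0.21. CDX1 had 73 to 136 reads per library, and the 95% Poisson intervals in the combined group were 3.80 to 5.46 FPKM in replicate 2 and 2.36 to 3.63 in replicate 3. The log2 fold change was 0.21 and did not pass without or with the block (limma adjusted p = 0.672 and 0.313). It was 0.13, 0.13 and 0.38 without replicate 1, 2 or 3 of the combined group. In replicates 1 and 2 only the value was 0.40, and no test is drawn from it because replicate 3 was left out after it was seen to go the other way. The part of the replicate 3 shift in this difference was not tested.

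**Figure D2:**
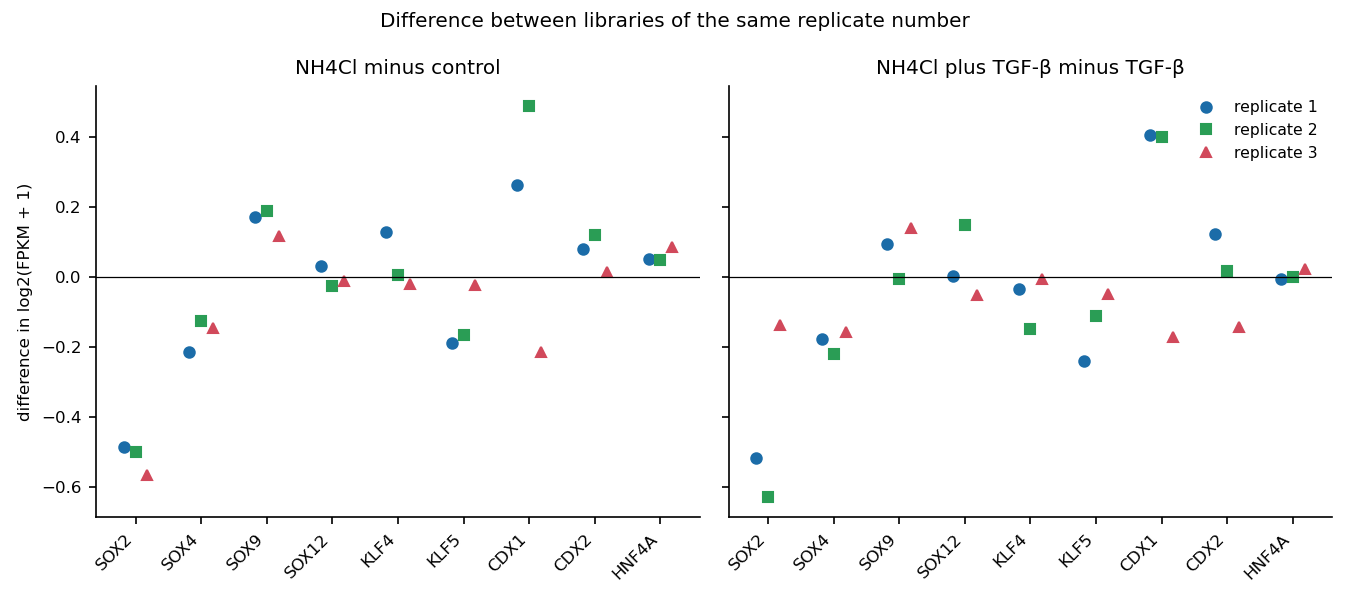
Difference in log2(FPKM + 1) between libraries of the same replicate number for the 9 genes past the filter, NH4Cl minus control on the left and NH4Cl plus TGF-β minus TGF-β on the right. Circles, squares and triangles are replicates 1, 2 and 3; CDX1 was above 0 in replicates 1 and 2 and below 0 in replicate 3 (-0.21 and -0.17) on both sides, and the left panel is the comparison that chose the set.

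CDX2 (ENSG00000165556), another intestinal homeobox factor, ranged from 12.5 to 15.1 FPKM, with means of 13.8 ± 1.10 (SD, n = 3) with TGF-β and 13.8 ± 0.439 with NH4Cl plus TGF-β, against 13.1 ± 0.488 in control cells and 13.8 ± 0.212 with NH4Cl. Its fold change between NH4Cl plus TGF-β and TGF-β was -0.00077, with a 95% confidence interval of -0.14 to 0.13 without the block and -0.11 to 0.11 with it. HNF4A (ENSG00000101076), a nuclear receptor of intestinal and liver cells, ranged from 27.6 to 33.1 FPKM. Its fold change was 0.0056, with a 95% confidence interval of -0.18 to 0.19 without the block and -0.07 to 0.08 with it. The sign of both values changed when single libraries were left out.

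**Figure D3:**
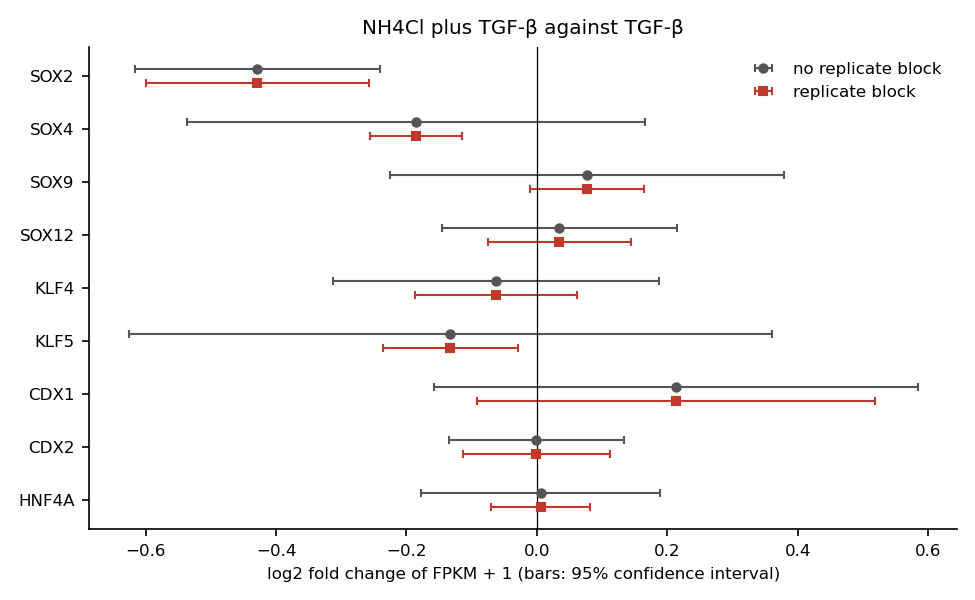
Log2 fold change of FPKM + 1 between NH4Cl plus TGF-β and TGF-β (horizontal axis) for the 9 genes past the filter, with 95% confidence intervals as bars, without the replicate block (circles) and with it (squares). The interval of SOX2 lies below 0 in both fits (-0.62 to -0.24 and -0.60 to -0.26). Those of SOX4 (-0.26 to -0.12) and KLF5 (-0.24 to -0.03) lie below 0 with the block only, and KLF5 did not pass the adjusted threshold.

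TP63 (ENSG00000073282), the master factor of basal cells, had 1 to 8 reads per library and a mean of 0.0356 FPKM over the 12 libraries, so differences between groups were not detectable at this depth. SOX2-OT (ENSG00000242808), a noncoding gene on the same strand that spans SOX2 and shares 0 exon bases with it, had 4 to 10 reads per library and a mean of 0.0135 FPKM. SOX2 was thus measured with almost no reads on the gene around it.

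Levels per length, as mean FPKM in control cells, ran from KLF5 (162) through SOX9 (54.1), SOX4 (45.8), HNF4A (28.8), SOX12 (28.3), CDX2 (13.1), SOX2 (12.9), KLF4 (5.80) and CDX1 (3.45) to TP63 (0.0247). HNF4A and SOX12 differed by less than their spread (SD 1.36 and 1.11, n = 3), as did CDX2 and SOX2 (SD 0.488 and 0.451). Across groups, SOX2 was highest in control cells, followed by TGF-β, NH4Cl plus TGF-β and NH4Cl. The means of the control and TGF-β groups overlapped within their spread, as did those of the 2 groups with NH4Cl.

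The response to TGF-β at 1 h was compared without NH4Cl and on top of it. These comparisons and the interaction share libraries with those above. They use the control or NH4Cl libraries that chose the set, so their values for SOX2 are a description and not independent of the selection. None of the 9 factors passed against control, where 0 of 12341 genes (0%) passed without the block and 103 had an unadjusted limma p under 0.05. With the block, 1 gene (0.00810%) passed and 422 had an unadjusted limma p under 0.05. The gene was ID1, an inhibitor of DNA binding by basic helix-loop-helix factors and a known early target of TGF-β family signals, named here after its value was seen. The FPKM of ID1 was 49.5 ± 15.0 (SD, n = 3) with TGF-β against 31.9 ± 12.9 in control cells, and its log2 fold change was 0.65 (standard error 0.0657, limma adjusted p = 0.0248 with the block). For SOX2, as a description, the log2 fold change with TGF-β was -0.06 (standard error 0.0850, 95% confidence interval -0.25 to 0.12). The other factors lay between -0.07 for SOX4 and 0.07 for CDX2. SOX4 was lower with TGF-β in 3 of 3 replicates and had an unadjusted limma p of 0.0450 with the block, which did not pass adjustment (limma adjusted p = 1.00).

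On top of NH4Cl, none of the 9 factors passed with TGF-β either, 0% of all genes passed without the block (165 with an unadjusted limma p under 0.05), and ID1 was again the 1 gene (0.00810%) that passed with it (879 with an unadjusted limma p under 0.05). With the block in replicates 1 and 2 only, ID1 did not pass on top of NH4Cl, and neither did any other gene by limma. Against the NH4Cl libraries that chose the set, SOX2 differed, as a description, by 0.03 (standard error 0.0850), and by replicate by -0.06, -0.10 and 0.23. SOX4 was lower in 3 of 3 replicates at -0.10, with a limma adjusted p of 0.660 with the block. The interaction, which is the difference between the effect of NH4Cl with and without TGF-β, contains the SOX2 difference that chose the set. As a description, the interaction was 0.09 for SOX2 (standard error 0.120, 95% confidence interval -0.18 to 0.36). It passed for 0 of 12341 genes, 0% without the block and 0% with it, where limma gave an unadjusted p under 0.05 for 115 and 537 genes. In replicates 1 and 2 only, the interaction of SOX2 was -0.08.

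Likeness to SOX2 was measured as Pearson's r of log2(FPKM + 1) over the 12 libraries, among 12341 genes, as a description. The highest values were those of AGBL5 (0.965), KIZ (0.958), WNT10A (0.954), RIN2 (0.952) and OS9 (0.948). The lowest were those of DNAH17 (-0.973), IL6R (-0.969), SLC17A5 (-0.968), GAA (-0.964) and MGAT4B (-0.959). GAA, which encodes the lysosomal alpha-glucosidase, had a mean of 13.4 FPKM in control cells and 23.3 with NH4Cl, and SLC17A5, which encodes a lysosomal sialic acid transporter, had 7.49 and 9.36. WNT10A, a Wnt ligand gene, had 17.5 and 11.3. The libraries share their groups, so r over the 12 mixes differences between libraries with and without NH4Cl and differences within each kind. Within the 6 libraries without NH4Cl, r ran from -0.31 to 0.83 for the 5 highest genes and from -0.92 to -0.52 for the 5 lowest. Within the 6 with NH4Cl it ran from 0.61 to 0.92 and from -0.92 to -0.59. The genes were picked by r over these same libraries, so these values are not independent of that choice. Among the other factors, r with SOX2 was 0.52 for SOX4, 0.37 for KLF5, -0.20 for SOX9 and -0.59 for CDX1. After each replicate number was centred on its mean, it was 0.87 for SOX4, 0.82 for KLF5, -0.65 for CDX1 and -0.69 for SOX9.

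The SOX family list held 19 genes, of which 15 were in the table and 8 were tested, among them SOX2, SOX4, SOX9 and SOX12. Between NH4Cl plus TGF-β and TGF-β, 0 were higher and 1 was lower without the block (1.03% of all genes passed), and 1 was higher and 2 were lower with it (18.8% of all genes passed). Those lower were SOX2 and, with the block, SOX4. The 1 counted as higher with the block was SOX8, at 0.62, 0.64 and 1.43 FPKM with TGF-β and 1.30, 1.71 and 3.20 with NH4Cl plus TGF-β. It lay under the filter level of 1 FPKM in both groups without NH4Cl (means of 0.728 in control cells and 0.895 with TGF-β) and entered the test through its level with NH4Cl (1.76, and 2.07 with both), so its values are given as a description and nothing is read from its place in the count. The median over the 8 genes was 0.056. Counts of this and the next 5 lists are not given for NH4Cl against control, because that comparison chose the set.

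In the KLF family, 16 of 17 genes were in the table and 10 were tested, among them KLF4 and KLF5. Without the block 0 passed, and 1 was higher and 1 lower with it, a share close to the 18.8% of all genes. KLF9 rose by 0.38 with the block (standard error 0.0757, limma adjusted p = 0.00825, and 0.656 without it). In replicates 1 and 2 only it was 0.36, with a limma adjusted p of 0.0565 with the block and 0.0407 without it. With all replicate numbers and no block, the fold change of KLF9 was 0.24 and 0.62 without TGF-β replicate 2 or 3, and 0.12 without replicate 3 of the combined group. KLF10, known as a TGF-β-inducible early gene, had 22.5, 23.2 and 22.5 FPKM with TGF-β and 18.1, 19.4 and 19.5 with NH4Cl plus TGF-β. It fell with the block (log2 fold change -0.25, standard error 0.0650, limma adjusted p = 0.0267, and 0.166 without the block). The groups did not overlap, as was the case for 16.3% of the genes tested. In control cells KLF10 had 20.9, 19.9 and 19.3 FPKM, all below the TGF-β libraries, with a log2 fold change of 0.18 that did not pass (limma adjusted p = 1.00).

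Of 17 pluripotency factors and partners of SOX2, 9 were in the table and 3 were tested, 0 passing without the block and 2 higher with it, where 10.3% of all genes were higher. POU5F1, the classical partner of SOX2, had 16 to 30 reads per library and a mean of 0.470 FPKM. ESRRB changed by 0.25 (limma adjusted p = 0.0234 with the block, 0.576 without) and TFCP2L1 by 0.22 (limma adjusted p = 0.0405 with the block, 0.221 without). In replicates 1 and 2 only the values were similar, 0.24 and 0.21, but neither passed (limma adjusted p = 0.0620 and 0.1095). Without TGF-β replicate 3 and without the block, that of ESRRB was 0.14.

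All 20 intestinal stem cell markers were in the table and 15 were tested. Without the block 0 passed, and with it 0 were higher and 6 lower, where 10.3% of all genes were higher and 8.48% lower. The median was -0.11 over the 15, and between NH4Cl and control, as a description, it was -0.07. SLC12A2, an ion cotransporter of crypt base cells, had 11.9, 12.4 and 7.49 FPKM with TGF-β and 8.20, 8.53 and 5.26 with NH4Cl plus TGF-β. ASCL2, a Wnt-dependent stem cell factor, had 60.0, 58.2 and 45.2 FPKM with TGF-β and 46.0, 44.6 and 32.0 with NH4Cl plus TGF-β. EPHB2, a receptor that positions crypt cells, had 4.71, 5.03 and 3.63 FPKM and 3.45, 3.90 and 2.58. All 3 genes were lower in replicate 3 than in the other libraries of their group and lower with NH4Cl in 3 of 3 replicates, and the groups overlapped. With the block, SLC12A2 fell by 0.47 (standard error 0.0512, limma adjusted p = 0.000518), ASCL2 by 0.41 (standard error 0.0356, limma adjusted p = 0.000172) and EPHB2 by 0.34 (standard error 0.0486, limma adjusted p = 0.00172). Without the block their limma adjusted p was 0.435, 0.374 and 0.463, and with the block in replicates 1 and 2 only it was 0.00267, 0.00278 and 0.0178. Without replicate 3 of the combined group and without the block, the fold changes were -0.28, -0.25 and -0.21. AXIN2, a Wnt target, fell by 0.12 with the block (limma adjusted p = 0.0424), and in replicates 1 and 2 only it was -0.10, which did not pass (limma adjusted p = 0.192).

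Of 27 intestinal identity and differentiation genes, 23 were in the table and 13 were tested, 0 passing without the block and 3 higher and 0 lower with it, where 10.3% of all genes were higher and 8.48% lower. FOXA3, a forkhead factor of endodermal epithelium, rose by 0.41 with the block (standard error 0.0496, limma adjusted p = 0.000855, and 0.734 without). Without the block, the fold change of FOXA3 was 0.20 and 0.75 without TGF-β replicate 2 or 3, and 0.10 without replicate 3 of the combined group. TFF3, a secreted peptide of goblet cells, had 45.8, 38.0 and 133 FPKM with TGF-β and 58.3, 55.3 and 174 with NH4Cl plus TGF-β. It rose by 0.42 with the block (standard error 0.0759, limma adjusted p = 0.00536, and 0.866 without), a change far smaller than its distance between replicate 3 and the others. ELF3 rose by 0.15 with the block (limma adjusted p = 0.0252), and in replicates 1 and 2 only it was 0.12, which did not pass (limma adjusted p = 0.0916). Without the block, TFF3 was 0.21, 0.08 and 0.97 without TGF-β replicate 1, 2 or 3, and 0.67, 0.70 and -0.11 without replicate 1, 2 or 3 of the combined group. ELF3 was 0.06, 0.07 and 0.32, and 0.24, 0.25 and -0.05, in the same fits. VIL1, the most abundant of the 13, had a log2 fold change of 0.13 that passed in neither fit (limma adjusted p = 0.426 and 0.101), and it was higher in 2 of 3 replicates. Its value in replicates 1 and 2 only, with the block, was 0.19 (limma adjusted p = 0.0267), which is not taken as a call because replicate 3, the one left out, was not higher.

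Although TP63 itself was near 0, 20 of 21 basal and squamous genes were in the table and 18 were tested. Without the block 0 were higher and 2 lower, where 0.778% and 0.251% of all genes were. With the block 1 was higher and 9 lower, where 10.3% and 8.48% of all genes were, and the median was -0.17 over the 18. KRT5, a basal keratin, had 430, 434 and 517 FPKM with TGF-β and 314, 315 and 351 with NH4Cl plus TGF-β. KRT6B, a keratin of activated epithelium, had 10.5, 10.7 and 9.71 FPKM and 6.30, 7.11 and 7.23. Neither gene overlapped between these groups, as was the case for 16.3% of the genes tested. KRT5 fell by 0.49 (standard error 0.0813, limma adjusted p = 0.0307 without the block and 0.000168 with it) and KRT6B by 0.52 (standard error 0.0756, limma adjusted p = 0.0176 without the block and 0.00136 with it). KRT17 had 13.8, 11.3 and 29.8 FPKM with TGF-β and 6.81, 5.12 and 14.4 with NH4Cl plus TGF-β, and fell by 0.98 with the block (standard error 0.0628, limma adjusted p = 3.61e-05, and 0.424 without). KRT6A fell by 0.96 with the block (standard error 0.218, limma adjusted p = 0.0148, and 0.380 without). Without TGF-β replicate 3 and without the block, KRT17 was -0.58 and KRT6A was -0.48. KRT14, the usual partner of KRT5 in basal cells, had 0 to 2 reads per library. Without the block, the call of KRT5 was lost without control replicate 1 or 2 (limma adjusted p = 0.0615 and 0.0516), TGF-β replicate 1 or 2 (0.0831 and 0.0943), NH4Cl replicate 1 or 2 (0.0573 and 0.0630) or replicate 1 or 2 of the combined group (0.10995 and 0.114). That of KRT6B was lost without TGF-β replicate 1 or 2 (limma adjusted p = 0.0909 and 0.0952) or replicate 1 or 2 of the combined group (0.0880 and 0.0688). The calls were also lost when a replicate number was left out, without replicate 1 or 2 for KRT5 (limma adjusted p = 0.891 and 0.900) and for KRT6B (0.852 and 0.862), and with only the 6 libraries compared (0.268 and 0.248). KRT5 did not pass with no filter (limma adjusted p = 0.0691), and KRT6B did not pass with an equal sum in all libraries (limma adjusted p = 0.0896).

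**Figure D4:**
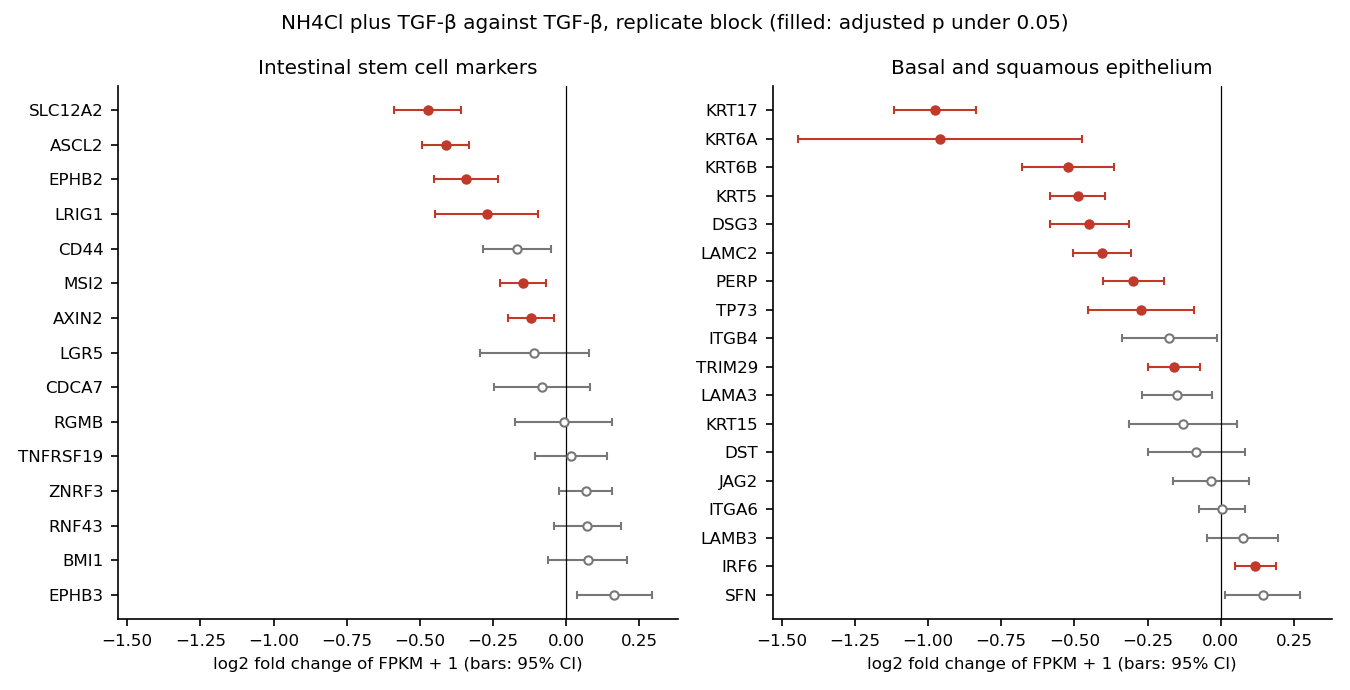
Log2 fold change of FPKM + 1 between NH4Cl plus TGF-β and TGF-β (horizontal axes) for the tested intestinal stem cell markers (left, 15 genes) and basal and squamous genes (right, 18 genes), with the replicate block. Bars are 95% confidence intervals and filled points have a limma adjusted p under 0.05, which 0 stem cell markers reached as higher and 6 as lower, and 1 and 9 of the basal and squamous genes, where 10.3% of all genes were higher and 8.48% lower.

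The labelled cell type was checked against markers. All 7 markers of simple epithelium had a mean FPKM of at least 1, with a summed level of 2366 to 3573 FPKM per library and KRT18 as the most abundant at 876. The sum was lower with NH4Cl than in control cells in 3 of 3 replicates, from 2601, 2483 and 3470 to 2366, 2394 and 3067. With NH4Cl plus TGF-β it was 2599, 2465 and 3212, against 2591, 2503 and 3573 with TGF-β, lower in 2 of 3. Between these groups 0 of the 7 markers passed the limma threshold without the block, where 1.03% of all genes did. With the block 2 were higher and 2 lower, where 10.3% of all genes were higher and 8.48% lower. Of 6 fibroblast markers, 4 had a mean under 0.5 FPKM, and the sum of 8.02 to 11.2 FPKM was mostly LUM (7.79) and was higher with NH4Cl in 3 of 3 replicates on both backgrounds. Of 5 immune markers, 3 were in the table, with a sum of 0.730 to 2.51 FPKM and LYZ as the most abundant (1.12). Of 4 endothelial markers, 3 had a mean under 0.5 FPKM. The remaining one, VWF, had 1.60, 1.27 and 3.98 FPKM with TGF-β and 2.44, 2.42 and 6.44 with NH4Cl plus TGF-β, so it too was higher with NH4Cl in 3 of 3 replicates, and it was highest in replicate 3. Its log2 fold change was 0.52 (limma adjusted p = 0.675 without the block and 0.00181 with it). The part of other cell types in the results was not tested.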

How the data were processed

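RNA-seq of 12 HCT116 libraries was used as FPKM deposited by the authors. Per the submitters' processing notes, reads were handled with Trimmomatic 0.36, STAR 2.5.2b, featureCounts of Subread 1.5.2 and DESeq2 on GRCh38, whereas the methods name HTSeq for counting. The labels name the RNeasy Plus kit and the methods the PureLink kit. Identifiers of all 25733 genes matched GENCODE release 29, and 32 gene names occurred more than once, none of them among the 10 factors. Depth had a median of 15484798 reads on genes. Between replicates 1 and 2 of a group, chi-square per gene was 1.84 to 5.84. It was 30.9 to 44.6 when replicate 3 was involved (counting error alone would give 1). No library was therefore a copy of another in its group, and pairs across groups were not compared in this way.

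Values were tested as log2(FPKM + 1) with limma 3.58.1 in R 4.3.3 (intensity trend), after a test on simulated data, for genes whose mean FPKM reached 1. A single fit with 4 group means held all 12 libraries. Deviations from group means correlated in each of the 18 pairings of equal replicate number, at 0.349 to 0.774, and the replicate number was also fitted as a block. Deviations within a group sum to 0, so the shift of replicate 3 makes replicates 1 and 2 correlate across groups without any matching. Pairs of unlike number were not compared, so the correlations do not show that replicates 1 and 2 were matched. Tables and plots used Python 3.11.15, numpy 2.4.6, pandas 2.3.3, scipy 1.17.1 and matplotlib 3.10.9.

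The members and lists were chosen with earlier results of these data known. Genes named were the 10 factors and SOX2-OT, the 5 highest and 5 lowest r with SOX2, and from each of 6 lists (SOX family, KLF family, pluripotency factors and partners, intestinal stem cell markers, intestinal identity and differentiation genes, basal and squamous genes) at most 3 genes with the largest change past the threshold between NH4Cl plus TGF-β and TGF-β without the block and with it, or the 2 most abundant where none passed. POU5F1, KRT14 and the cell type markers were named after their values were seen, as was ID1. Alternatives were a pseudocount of 0.1, no filter, a mean FPKM of at least 5, scaling to the same sum (TPM), centring on the median, only the groups compared, the block, and each library or replicate number left out. The block in replicates 1 and 2 only was chosen after seeing the data.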

Additional observations from a re-analysis of the deposited data

How the results depend on the processing

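Between NH4Cl plus TGF-β and TGF-β, 127 genes passed, compared with 51 with no filter, 68 with scaling to the same sum, 0 with only the groups compared, 2322 with the replicate block, 1653 with the block in replicates 1 and 2 only (chosen after seeing the data) and 0 to 1740 with libraries or replicate numbers left out. The count was 36, 39 and 103 without control replicate 1, 2 or 3, 9, 3 and 133 without those of TGF-β, 42, 29 and 92 without those of NH4Cl, 5, 6 and 39 without those of the combined group, and 0, 0 and 1740 without replicate 1, 2 or 3 of all groups. Between NH4Cl and control, 47 passed, compared with 23 with no filter, 0 with only the groups compared, 1674 with the block, 1147 with the block in replicates 1 and 2 only and 0 to 1293 with libraries left out. With TGF-β against control the counts were 0, 1 with the block, 1 with the block in replicates 1 and 2 only and 0 to 1 with libraries left out. On top of NH4Cl they were 0, 1 with the block and 0 with the block in replicates 1 and 2 only, and for the interaction 0, 1 with the block in replicates 1 and 2 only and 0 to 1 with libraries left out. The cause of these differences was not tested. Fits without the block that leave out 1 library of the 2 groups compared leave part of the replicate 3 shift in the fold change.

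Signs changed for the values that follow, of which TFF3, ELF3 and KLF5 were not near 0. With the block in replicates 1 and 2 only, the log2 fold change of SOX2 was 0.0003894 with TGF-β, -0.07918 with TGF-β on top of NH4Cl and -0.07957 for the interaction, and between NH4Cl plus TGF-β and TGF-β it was 0.07069 for CDX2 and -0.003023 for HNF4A, which was -0.002282 with centring on the median. With libraries left out, SOX2 ran from -0.112 to 0.0003894 with TGF-β, from -0.07918 to 0.1023 on top of NH4Cl and from -0.07957 to 0.1984 for the interaction. Between NH4Cl plus TGF-β and TGF-β, the ranges were -0.05753 to 0.1792 for SOX9, -0.02824 to 0.1231 for SOX12, -0.165 to 0.01168 for KLF4, -0.342 to 0.034 for KLF5, -0.06283 to 0.07069 for CDX2, -0.06885 to 0.07147 for HNF4A, -0.04732 to 0.3205 for ELF3 and -0.1141 to 0.9681 for TFF3. The block changed no tested call of the factors other than that of SOX4. Depth limits TP63 and SOX2-OT, which had at most 10 reads in a library.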
